A study of Homo sapiens with 4 samples.

Results

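The genes described here carry the canonical Wnt signal from the cell surface to the nucleus, together with MYC and the receptor tyrosine kinase MET. A list of 9 genes was drawn up by name: the receptors FZD7, FZD6 and LRP6, the destruction complex genes APC and GSK3B, the effectors CTNNB1 and TCF7L2, MYC and MET. A gene counted as a member when it was in the table of transcript levels and in both lists of m6A peaks, which held for 7 of the 9, out of 14416 genes in the table. GSK3B had a transcript level but peaks in a single list, and it is described beside the members without being counted among them. FZD6 was not analysed here.

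N6-methyladenosine (m6A) was mapped in OMM2.3, an established human uveal melanoma cell line labelled as wild type, by sequencing RNA fragments captured with an antibody to m6A. The treated cells (MA) had been exposed to meclofenamic acid for 24 h and the control cells (NC) to DMSO for the same 24 h, and the labels give no dose. Each condition had 1 input library, which gives transcript levels, and 1 immunoprecipitated (RIP) library, which gives a list of peaks, so there were 4 libraries without replicates. All differences below therefore compare single libraries, have no replicate check and carry no p-value. In these bulk libraries, fewer cells expressing a gene and less RNA per cell cannot be told apart.

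In the canonical Wnt pathway, secreted WNT ligands bind a Frizzled receptor and its co-receptor LRP5 or LRP6. Without ligand, a complex scaffolded by APC and AXIN lets the kinases casein kinase 1 and GSK3 phosphorylate beta-catenin, the product of CTNNB1, which is then degraded. With ligand, beta-catenin accumulates and joins TCF and LEF factors such as TCF7L2 on target genes, among which MYC is a classic example in intestinal cells. MET is the receptor for hepatocyte growth factor and is often studied in uveal melanoma for its link to liver metastasis. m6A is deposited on messenger RNA by the METTL3 and METTL14 methyltransferase, is typically dense in long internal exons and near stop codons, and can be removed by FTO, which meclofenamic acid inhibits.

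The depth behind the input values was recovered from the FPKM values themselves (sequenced fragments scaled for transcript length and library total), and the library totals came to 37041597 for NC and to 41630895 for MA. Of the 14416 genes, 10564 reached 1 FPKM in at least 1 input and were compared. All 7 melanocyte lineage markers were expressed, with SOX10 at 488 FPKM in NC and 274 in MA, and each was lower in MA. By the log2 difference defined below, 4 of the 7 were lower by 2-fold or more (57.1%, against 2.98% of all compared genes). Their median difference was -1.33. Of 19 fibroblast, immune, endothelial and epithelial markers, 12 were in the table and only the fibroblast gene LUM reached 1 FPKM, at 4.96 in NC and 12.0 in MA. The other 11 summed to 0.654 FPKM in NC and 0.539 in MA, and KRT19 and CDH1 were listed at 0 in MA. Whether the lower melanocyte markers and the higher LUM have a part in the differences below was not tested. The NC list held 22067 peaks and the MA list 19929.

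The effector CTNNB1 was by far the most abundant of the genes, and LRP6, APC and TCF7L2 were the least abundant members in both inputs. FPKM divides by transcript length, so levels of different genes can be set side by side. CTNNB1 was at 428 FPKM in NC and 293 in MA, above 98.8% and 98.5% of the compared genes. MET was at 74.7 FPKM in NC and 61.5 in MA, and MYC, the transcription factor that drives growth and ribosome production, at 64.5 and 45.2. The 3 genes are thus expressed at levels above most genes of these cells in either condition.

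FZD7 lay above the middle of the compared genes in both inputs, and APC, LRP6 and TCF7L2 lay below it. FZD7, a Frizzled receptor, was at 14.5 FPKM in NC and 10.8 in MA. TCF7L2, which binds DNA for beta-catenin, was at 4.65 FPKM in NC and 5.77 in MA. APC, the scaffold of the destruction complex, was at 4.28 FPKM in NC and 7.47 in MA. LRP6, a Wnt co-receptor, was at 4.13 FPKM in NC and 5.96 in MA. From highest to lowest member the level spanned 103-fold in NC and 50.7-fold in MA. The order CTNNB1, MET, MYC and FZD7 was the same in both inputs. The lower 3 lay close together and changed places, with TCF7L2 first in NC and APC first in MA.

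**Figure D1:**
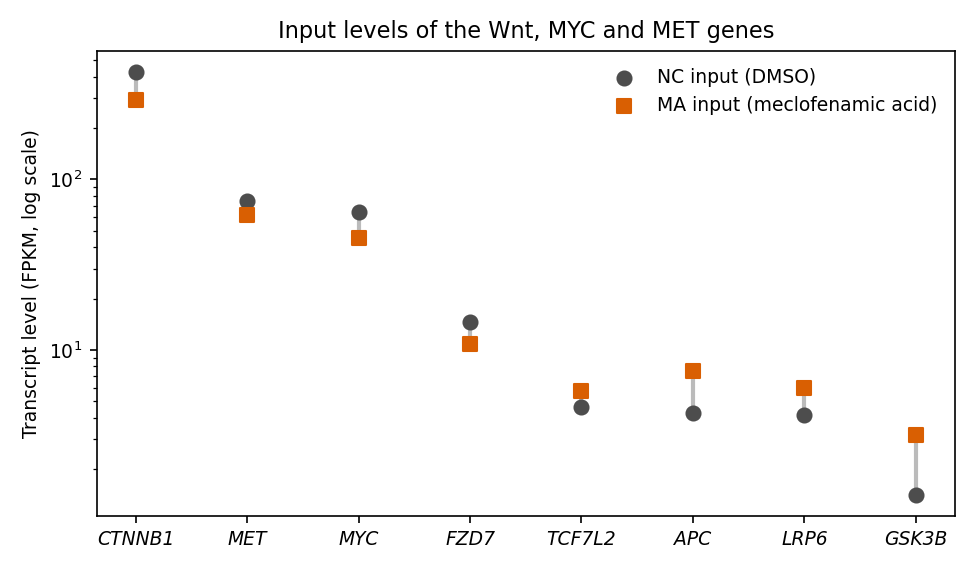
Transcript level of the 7 members and GSK3B in the NC input (circles) and the MA input (squares), in FPKM on a log axis, 1 library a condition, with the genes ordered by NC level. The 4 members of highest level are lower in MA than in NC, and the 3 lower members and GSK3B are higher in MA.

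The members split by direction between the inputs, and none differed by 2-fold. Differences are log2((MA FPKM + 1)/(NC FPKM + 1)), where the added 1 FPKM understates the difference of low genes. Of the 7 members, 3 were above 0 and 4 below, beside 56.7% of all compared genes above 0. Of the same 7, 0 reached 2-fold in either direction. Over all 10564 compared genes, 10.3% were higher by 2-fold or more in MA and 2.98% were lower by as much, so 0 of 7 is near what the background gives. The members' median was -0.28, from -0.54 to 0.68, beside a median of 0.11 over all compared genes.

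CTNNB1 had the lowest difference, -0.54, followed by MYC at -0.50, FZD7 at -0.39 and MET at -0.28. On the FPKM values themselves, CTNNB1 was 1.46-fold and MYC 1.43-fold higher in NC than in MA, FZD7 1.34-fold and MET 1.22-fold. Each of these lay above the 10th percentile of all compared genes, -0.60, but in their lower part. By difference, CTNNB1 ranked at percentile 12.4 of the compared genes, MYC at 14.2, FZD7 at 19.5 and MET at 25.8. Counting error was small: the log2 ratio of CTNNB1 without an added FPKM was -0.55 (exact 95% binomial interval -0.56 to -0.53, from 63057 reads in NC and 48547 in MA). That of MYC was -0.51 (-0.55 to -0.47, from 10787 and 8505 reads), that of FZD7 -0.42 (-0.51 to -0.34) and that of MET -0.28 (-0.32 to -0.24). These intervals cover counting error only, and the spread between cultures was not measured.

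APC had the highest difference of the members, 0.68, followed by LRP6 at 0.44 and TCF7L2 at 0.26. APC was 1.75-fold, LRP6 1.44-fold and TCF7L2 1.24-fold higher in MA by FPKM. The log2 ratio of APC was 0.80 (0.72 to 0.89, from 1814 reads in NC and 3559 in MA), that of LRP6 0.53 (0.43 to 0.62) and that of TCF7L2 0.31 (0.19 to 0.44). For all 7 members the counting interval excluded 0. The share of all compared genes for which this holds was not computed, so nothing about the members is read from that count.

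By recovered transcript length, the members higher in MA were longer than those lower in MA. Over the compared genes the difference also moved with length. With the compared genes cut into 10 equal groups by length (deciles), the median difference was 0.38 in the longest decile and -0.09 in the shortest. APC and LRP6, with recovered lengths of 11437 and 9394 bases, fell in the longest decile. FZD7, MYC, CTNNB1 and MET fell in the length deciles 7 and 6, whose medians were 0.27 and 0.12. TCF7L2, at 5296 bases, fell in decile 8, whose median of 0.21 was below that of decile 7. Recovered lengths are the smallest that fit the values and can be a whole fraction of the true one. That of FZD7, 4587 bases, equals the span of this single-exon gene in RefSeq.

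Less the median of its own decile, APC was at 0.30, LRP6 at 0.06 and TCF7L2 at 0.05. On the same scale MYC was at -0.77, FZD7 and CTNNB1 were both at -0.66 and MET was at -0.39. On this scale the 4 lower members were below 0 and the 3 higher members above it, with LRP6 and TCF7L2 close to the median of their decile. The deciles rest on the recovered lengths, and the 4 lower members were also those of highest level. Whether length or level has a part in the split was not tested. The plot of input differences shows both sets of values.

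**Figure D2:**
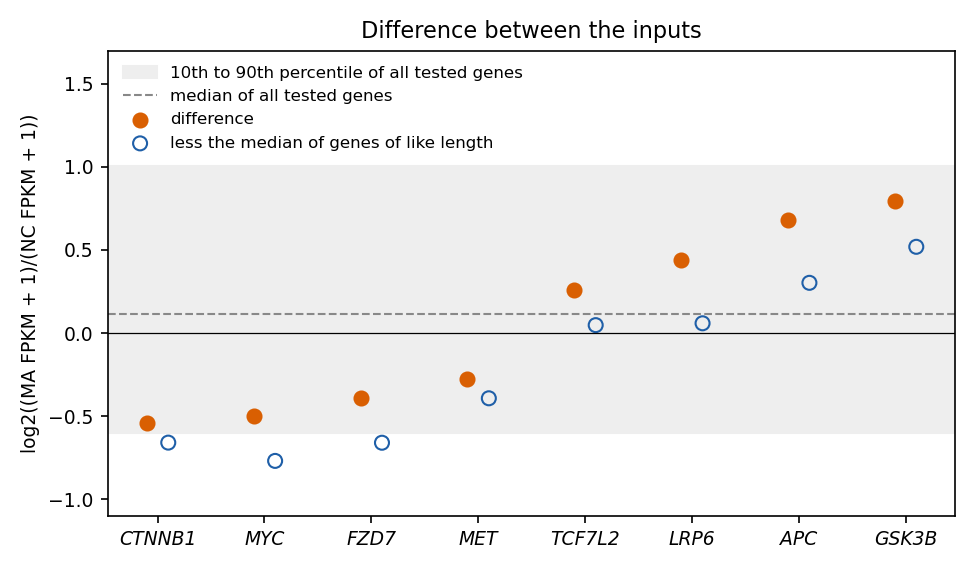
Difference between the inputs, log2((MA FPKM + 1)/(NC FPKM + 1)), for the 7 members and GSK3B (filled points), and the same less the median of compared genes in the same decile of transcript length (open circles). The band spans the 10th to the 90th percentile of all compared genes (-0.60 to 1.01), the dashed line is their median (0.11), and all filled points lie inside the band.

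GSK3B, the kinase that marks beta-catenin for degradation, was the lowest in level, at 1.42 FPKM in NC and 3.19 in MA. It was 2.25-fold higher in MA by FPKM, a log2 ratio of 1.17 (0.99 to 1.35, from 374 and 945 reads), and its difference with the added FPKM was 0.79. Of the 8 genes with a level, GSK3B thus had the highest difference. With an added 0.1 FPKM its difference was 1.11, past 2-fold.

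The members together had 30 peaks in the NC list and 27 in the MA list, with exonic lengths summing to 14134 and 15026 bases. The authors gave each peak its fold enrichment of RIP over input and its p-value. Folds are ranked here only within 1 list, and where folds of both lists are printed, nothing is read from their difference. The median fold over all peaks was 3.57 in NC and 3.07 in MA. Several peaks of a gene often carry the same p-value, as all 3 MYC peaks of the MA list do, so the p-value does not rank a gene's own peaks. Touching or overlapping peaks of a strand were joined to regions within each list, and for the members every peak remained a region of its own. A partner is a region in the other list with at least 1 base in common over the genomic span, introns included.

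Of the members' 30 NC regions, 24 overlapped a MA region (80.0%), beside 73.8% of all NC regions. Of their 27 MA regions, 21 overlapped a NC region (77.8%), beside 79.6% of all MA regions; with GSK3B added, it was 21 of 30 (70.0%). The members were chosen for having peaks in both lists, which the genes behind all regions were not, so nothing is read from these shares. All partners of these regions were peaks of the same gene.

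By annotated feature, 15 of the 30 NC peaks lay in exon outside the named ends of the coding sequence, 8 in the 3' UTR, 5 in the 5' UTR, 1 at a start codon and 1 at a stop codon. In the MA list the counts were 12, 9, 3, 2 and 1. The exon share of the members was 50.0% in NC and 44.4% in MA, beside 33.8% and 34.0% of all peaks, and APC held 6 of the 15 NC and 7 of the 12 MA exon peaks. Features are the authors' labels, and in MET and GSK3B their order is not that of 1 transcript. The positions below are on GRCh38.p13, counted from 1.

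Among the receptors, FZD7 had 4 peaks in NC and 2 in MA, and they covered 44.6% and 27.2% of its recovered transcript length. Its 3' UTR peak on chromosome 2, 202036148 to 202036846, had the same ends in both lists, with folds of 5.15 in NC and 3.88 in MA. At the other end of the transcript the lists differed. The most enriched FZD7 peak of the NC list, in the 5' UTR at 202033905 to 202034403 (fold 6.75, above 86.5% of NC peaks), had no MA partner, and the nearest FZD7 peak in MA began 249 bases downstream. A single MA peak, at 202034653 to 202035201 (fold 3.67), overlapped both the second 5' UTR peak of NC (202034503 to 202034952, fold 2.74) and its exon peak (202035051 to 202035450, fold 2.69).

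LRP6 had 6 peaks in each list, more than most genes with a peak, whose median was 2 peaks in either list. Its most enriched NC peak was annotated to the 3' UTR and crossed an intron on chromosome 12, 12120951 to 12124593 (499 exonic bases, fold 10.0, above 96.9% of NC peaks). The MA list had a peak at 12121051 to 12124643 with a fold of 5.25, the second highest of LRP6 there after one in the 5' UTR with a fold of 5.40. That 5' UTR peak, 12187030 to 12266795, spread over 797 exonic bases, while the NC peak within its span, 12244372 to 12266696, had 300 exonic bases and a fold of 2.60.

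Of the other LRP6 peaks, the exon peak with its lower end at 12159815 was in both lists, with folds of 3.75 in NC and 3.33 in MA. The NC peaks at 12165109 to 12179822 and 12181132 to 12181380 both overlapped the MA peak at 12179822 to 12181380, the first of them by 1 base only. Each list also had a short 3' UTR peak of 150 bases without partner, 348 bases apart (12118513 to 12118662 in NC, 12119011 to 12119160 in MA). A MA exon peak at 12138408 to 12147438 (fold 2.50) had no NC peak of LRP6 within 12376 bases.

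APC had the most peaks of the members, 8 in each list, more than 98.8% of genes with a peak in NC and 99.0% in MA. Its peaks covered 44.6% of the recovered transcript length in NC and 52.9% in MA, beside medians of 19.2% and 19.1% over genes with a peak. In both lists a run of peaks began at 112837600 on chromosome 5 and ended in the 3' UTR. The NC list had 7 peaks there, 6 in exon with folds from 2.88 to 8.00 and 1 in the 3' UTR (112843293 to 112844291, fold 10.6, above 97.7% of NC peaks). The MA list had 6 peaks there, 5 in exon with folds from 2.69 to 7.20 and 1 in the 3' UTR (112843293 to 112844241, fold 5.96).

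All of these APC regions overlapped a region of the other list. The most enriched APC peak was the 3' UTR peak in NC, and in MA it was the last exon peak, at 112842593 to 112843193 (fold 7.20, above 95.5% of MA peaks). The matching NC exon peak, 112842643 to 112843143, had the lowest fold of the NC run, 2.88. A single MA peak of 2048 bases, 112837600 to 112839647, covered 2 NC peaks, of 899 and 1000 bases.

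The APC peaks without partner were short. They were a 5' UTR peak of 150 exonic bases in NC (112780856 to 112801296, fold 2.85) and MA exon peaks of 151 bases at 112818993 to 112819143 (fold 2.67) and 112834963 to 112835113 (fold 3.00). The first MA peak and the NC peak lay 17696 bases apart in the genome.

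**Figure D3:**
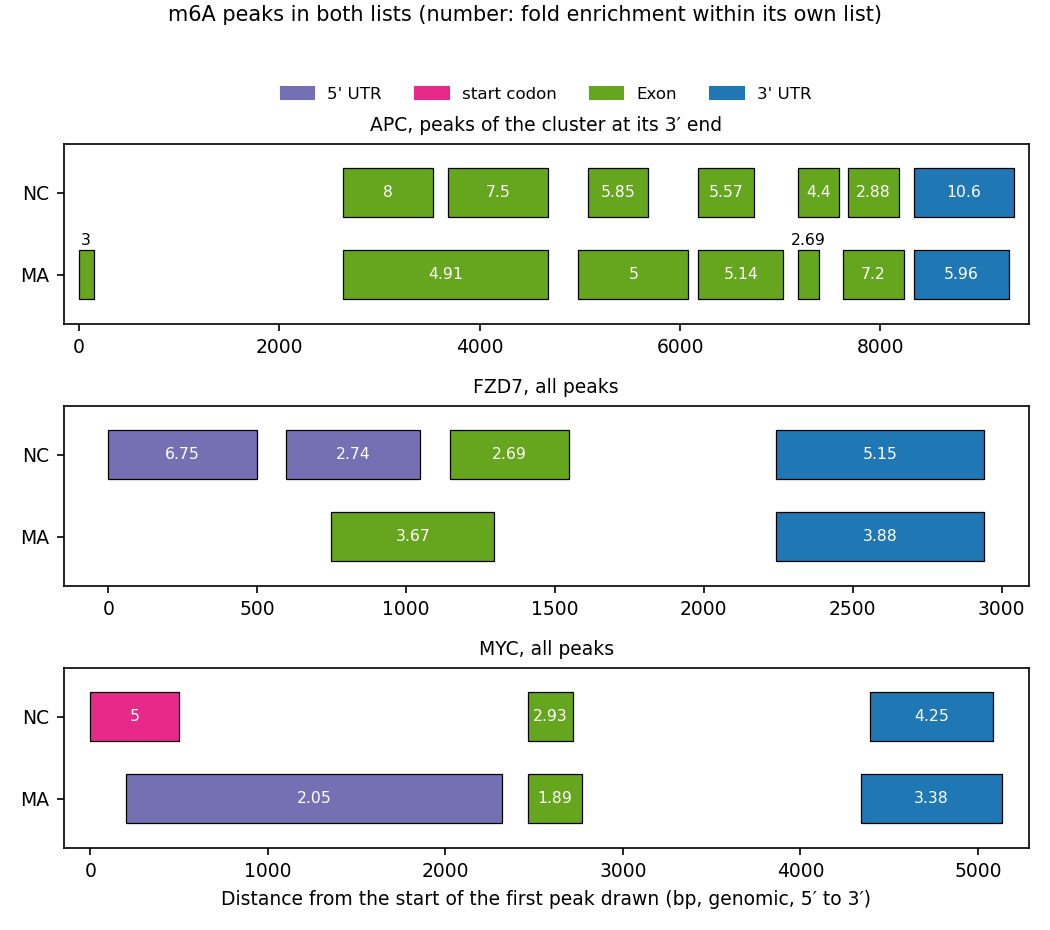
Peaks of APC (those within 10 kb of its 3' UTR peak), FZD7 and MYC in the NC and MA lists, drawn by genomic distance in bases from the start of the first peak shown, coloured by annotated feature, with the authors' fold enrichment written on each peak or, for short peaks, above it. A bar spans a whole peak, introns included, as for the first MA peak of MYC, which has 497 exonic bases. All 3 genes have a 3' UTR peak in both lists, and FZD7 has a 5' UTR peak in NC without MA partner.

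CTNNB1 had 1 peak in NC and 3 in MA, the fewest of the members in NC although its level was the highest. Peaks covered 3.79% of its recovered transcript length in NC and 13.8% in MA. The NC peak, in the 3' UTR on chromosome 3, 41239747 to 41239897 (fold 2.62), lay wholly inside the most enriched MA peak, 41239697 to 41239947 (fold 2.08). The other MA peaks were a start codon peak at 41199572 to 41199773 (fold 1.73) and a 3' UTR peak at 41239299 to 41239448 (fold 1.50). They are among the least enriched of the MA list, above 6.51% and 0.27% of its peaks, and 1.50 is the lowest fold either list holds. With only peaks at a fold of 2 or more, CTNNB1 had 1 peak in each list, and these overlap.

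TCF7L2 had 5 peaks in NC and 2 in MA, and both MA peaks had a NC partner. At the start of the gene on chromosome 10, the 5' UTR peaks began at 112950297 in both lists and ended at 112950447 in NC (fold 4.00) and 112950597 in MA (fold 6.0, above 90.9% of MA peaks). In the 3' UTR, the NC peak at 113165630 to 113165880 (fold 3.33) lay inside the MA peak that began at 113165580 (fold 2.40). The 3 NC peaks without partner were all annotated as exon and crossed introns: 112950846 to 112964614 (351 exonic bases, fold 3.00), 113141263 to 113146054 (201 bases, fold 1.86) and 113151039 to 113152387 (300.0 bases, fold 4.00). Of the 6 NC regions of the members without MA partner, TCF7L2 thus held 3, and FZD7, LRP6 and APC 1 each.

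MYC had 3 peaks in each list, and all had a partner. The 3' UTR peak on chromosome 8 was 127740469 to 127741164 in NC (fold 4.25) and 127740419 to 127741214 in MA (fold 3.38, the highest of MYC there). The exon peak began at 127738547 in both lists, with 249 bases and a fold of 2.93 in NC and 299 bases and a fold of 1.89 in MA. The most upstream peak differed in extent and label. In NC it was annotated to the start codon, lay within 1 exon at 127736079 to 127736576 and was the most enriched MYC peak (fold 5.00). In MA it was annotated to the 5' UTR, crossed an intron from 127736278 to 127738398 with 497 exonic bases, and had a fold of 2.05. They overlapped by 299 bases.

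MET had 3 peaks in each list, all with a partner. They covered 66.1% of its recovered transcript length in NC and 69.0% in MA, the highest shares of the members, though the share is lower if the true length is a multiple of the recovered 3538 bases. The peak annotated to the stop codon, on chromosome 7 at 116797640 to 116798386 (747 bases), had the same ends in both lists, with folds of 3.41 in NC and 3.79 in MA. Peaks with the same ends in both lists were 2 of the 30 NC and 2 of the 27 MA peaks of the members, this one and the 3' UTR peak of FZD7. Over the whole lists 5.75% of NC peaks and 6.37% of MA peaks were of this kind. The upstream MET peak began at 116699236 in both lists, ended at 116700231 in NC (exon, 996 bases, fold 3.72) and extended across an intron to 116724145 in MA, where it was annotated to the start codon (1095 exonic bases, fold 3.85). The peak annotated to the 3' UTR, 116795899 to 116796495 in NC (fold 2.28) and 116795754 to 116796446 in MA (fold 2.79), was the least enriched MET peak of each list.

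GSK3B had 0 peaks in NC and 3 in MA, on chromosome 3. The peak annotated to the 5' UTR had 350.0 exonic bases (120002175 to 120093631, fold 3.67). The peak annotated to the start codon had 150 bases (120093731 to 120093880, fold 2.25), and an exon peak had 200.0 exonic bases (119826851 to 119863514, fold 2.09). GSK3B is on the minus strand, so the start codon peak lay upstream of the 5' UTR peak, an order that 1 transcript cannot have. Its input level was lower in NC, as given above. Of the 422 genes at 1 to 2 FPKM in NC and 2 to 4 FPKM in MA, as GSK3B was, 28 (6.64%) had peaks in MA only, 18 in NC only, 342 in both and 34 in neither. Whether the lower NC level has a part in the empty NC list was not tested.

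The genes around the members were described by 10 lists of pathway genes, 139 genes in all, of which 112 were in the table and 86 reached 1 FPKM. Of the 86, members included, 4 were higher in MA by 2-fold or more (4.65%, against 10.3% of all compared genes) and 3 lower (3.49%, against 2.98%). Their median difference was -0.04, beside 0.11 over all compared genes. Rescaling to a median difference of 0 left 4 higher and made 6 lower, and rescaling to TPM gave 7 and 4. The shares of all compared genes called after either rescaling were not computed. Leaving out the 7 members, which had peaks in both lists by choice, 58 of the other 79 genes did too (73.4%), 7 had peaks in NC only and 4 in MA only, and over all compared genes 76.0% had peaks in both.

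Of the 21 genes for WNT ligands and their secretion 11 were in the table and 4 reached 1 FPKM, among them the ligands WNT5A (1.10 FPKM in NC, 1.43 in MA) and WNT10B (4.65 and 2.57, difference -0.66). Of 16 receptor genes 11 reached 1 FPKM, 5 above 0 and 6 below. FZD4, a Frizzled receptor with 2 peaks in NC and 4 in MA, was at 6.65 FPKM in NC and 1.97 in MA, a difference of -1.37 and the lowest of the pathway genes. ROR1, an orphan receptor tyrosine kinase of the noncanonical branch, was at 1.35 and 3.56 FPKM (0.95). FZD7 and LRP6 lay between them.

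Among the regulators of receptor turnover, which act through the ubiquitin ligases RNF43 and ZNRF3, 3 of 9 genes reached 1 FPKM, with differences from -0.25 in RNF43 to -0.01 in LGR4. Of 14 inhibitor genes only KREMEN1 (-0.45) and CTNNBIP1 (-0.59), which binds beta-catenin, reached that level. Of 20 genes of the Dishevelled proteins and destruction complex 19 did, with a median of -0.01. Casein kinase 1 genes of this list lay on both sides of 0. CSNK1A1, whose product primes beta-catenin for GSK3, was at 26.9 FPKM in NC and 60.4 in MA (1.14), and CSNK1G3 at 3.38 and 8.82 (1.17). Of the other casein kinase 1 genes, named after their values were seen, CSNK1G1 was at 0.89, CSNK1G2 at 0.01, CSNK1D at -0.54 and CSNK1E at -0.65. Within the complex, APC was at 0.68 and its paralog APC2 at -0.47, GSK3B at 0.79 and GSK3A at 0.00, and the scaffold AXIN1 at -0.12. DVL1, which relays the receptor signal, was the lowest of the list at 38.0 and 21.2 FPKM (-0.81).

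The nuclear effectors had a median of -0.11 over 11 genes and none at 2-fold. TCF7L2 had the highest value, 0.26, and the corepressor TLE2 the lowest, -0.64. LEF1, TCF7 and the feedback gene AXIN2, named after their values were seen, were under 1 FPKM in both inputs, with AXIN2 at 0.858 in NC and 0.916 in MA. Of 15 feedback and target genes, 7 were compared. JUN, an AP-1 subunit, was at 11.6 FPKM in NC and 89.8 in MA (2.85), and cyclin D1, CCND1, at 94.1 and 40.3 (-1.20). MYC (-0.50) lay between them. Of the 7 compared genes of this list, 2 were above 0 and the rest below. Their median was -0.25, beside 0.11 over all compared genes.

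Of the MYC network, 13 of 15 genes were compared and their median was -0.01. MXD1, which competes with MYC for its partner MAX, was at 0.871 FPKM in NC and 7.48 in MA (2.18, from 179 and 1727 reads). MLXIP, a related transcription factor of glucose sensing, was at 28.2 and 12.3 FPKM (-1.13). None of the 11 MYC target genes reached 2-fold, their median was 0.04, and they went from CDK4 (-0.91) to EIF4E (0.69). In MET signalling 8 of 13 genes were compared, with a median of 0.08 and none at 2-fold. The phosphatase PTPN11, which acts downstream of MET, was the highest (0.79) and the plexin PLXNB1 the lowest (-0.82). The 7 genes other than MET all had peaks in both lists, as had 76.0% of all compared genes.

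**Figure D4:**
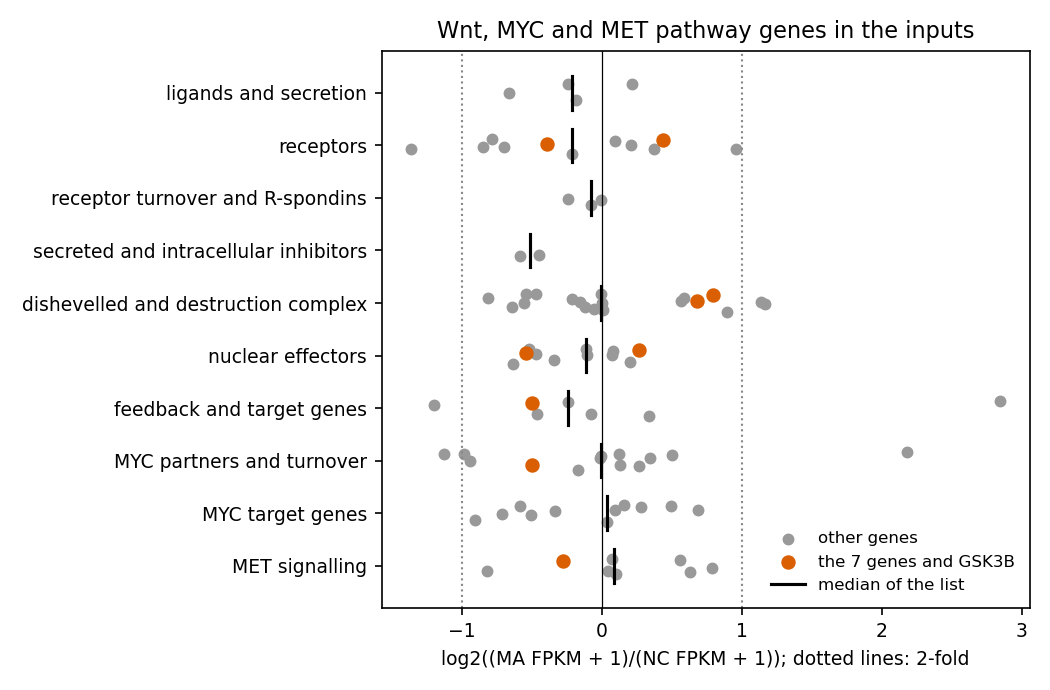
Difference between the inputs, log2((MA FPKM + 1)/(NC FPKM + 1)), for each compared gene of the 10 pathway lists, 1 row a list, with genes of several lists drawn in each. Orange points are the 7 members and GSK3B, bars are list medians and dotted lines mark 2-fold, which is passed by JUN, MXD1, CSNK1G3 and CSNK1A1 above and by FZD4, CCND1 and MLXIP below.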

How the data were processed

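Transcript levels are FPKM values that the authors deposited for the 2 input libraries. Per the submitters' processing notes, the tools included HISAT2, HISAT, Trimmomatic, ChIPseeker and deepTools, with GRCh38.p13 as the build. The sources used here give neither the read counter nor the peak caller. Peak positions, features, exonic lengths, fold ratios, p-values and false discovery rates are deposited by the authors, per the file headers. Peaks were called once per condition.

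Rows that repeated a peak (132 in NC, 99 in MA) were dropped and starts raised by 1. Reads, totals and lengths were recovered as the smallest whole numbers that give both FPKM values of a gene, which 99.98% of 13055 genes allowed, against 0.46% after the values were moved slightly. Of the totals tried, the one kept gave 69 genes their RefSeq span (GRCh38.p14, lengths only), the next 14. Intervals cover counting error only, since PCR copies cannot be told from separate molecules here. Genes that reached 1 FPKM in either input were compared with a pseudocount of 1 and called at 2-fold. With 1 library a group, no test was run. Scripts (Python 3.11.15, pandas 2.3.3, scipy 1.17.1) were tested on simulated data. All 9 listed genes, every pathway gene at 2-fold and the highest and lowest of each list may be named. Members and lists were chosen with earlier results of these data known. One marker of another cell type is not reported here. No genome sequence was used, and no sequence is shown.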

Additional observations from a re-analysis of the deposited data

How the results depend on the processing

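The count of members at 2-fold was 0 under all alternatives run, and each of the 7 members kept the sign of its difference under all of them. The median of the members was -0.39 after rescaling to a median difference of 0, -0.20 as TPM and -0.39 less the median of genes of like length. It was -0.0083 with GSK3B added, an alternative chosen after seeing the data. GSK3B itself was past 2-fold with a pseudocount of 0.1 (1.11) and as TPM (1.05). Pathway genes at 2-fold numbered 7, against 12 with a pseudocount of 0.1, 4 with one of 5 and 11 as TPM. The shares of all compared genes called under these alternatives were not computed, and the cause was not tested. When the overlap had to reach 50% of each of the regions, 16 of 30 NC regions of the members had a partner in MA (53.3%, against 46.3% of all NC regions). For peaks within 1 exon only, chosen after seeing the data, 16 of 22 NC regions (72.7%, beside 59.5% of all) and 14 of 18 MA regions (77.8%, beside 69.5%) had one. Overlap of exon blocks was not run, since exon blocks of the peaks were not used here. No paired analysis was possible because each group had 1 library. Without replicates, no difference here can be set against the spread between cultures.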

Other observations

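Some genes next to the members, named after their values were seen, had different peak numbers in the lists. GSK3A, which encodes the second GSK3 kinase of the destruction complex, was at 36.5 FPKM in both inputs and had 2 peaks in NC and 0 in MA, while GSK3B had 0 in NC and 3 in MA. FZD1, a Frizzled receptor, was at 5.83 FPKM in NC and 4.87 in MA with 4 peaks in NC and 8 in MA. APC2, the paralog of APC, was at 2.55 FPKM in NC and 1.56 in MA with 11 peaks in NC and 6 in MA. Over all compared genes, 7.29% had peaks in NC only and 4.04% in MA only, and of the 86 compared pathway genes 8.14% and 4.65%. These shares count genes with peaks in a single list. The share of genes whose peak numbers differ between the lists was not computed, so the genes named here are not set apart from others. Their peak numbers come from 1 peak list a condition and were not tested.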
